A study of Rattus norvegicus with 16 samples.

Results

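The genes that make fatty acids from acetyl-CoA, with the transcription factors that drive them, were followed in rat supraspinatus muscle after a tendon tear combined with loss of the nerve. The 10 genes were chosen by name: the enzymes Acly, Acaca, Acacb, Fasn and Me1, the enzyme Mlycd that removes their intermediate malonyl-CoA, and the regulators Srebf1, Mlxipl, Thrsp and Nr1h3. All 10 were found among the 17147 genes of the table, and all 10 passed the filter for low counts, as did 11658 genes in all. RNA sequencing covered 16 libraries from Sprague Dawley rats in 4 groups of 4. The unoperated controls were taken on day 0, and the other groups 10, 30 and 60 days after a full-thickness supraspinatus tear with suprascapular neurectomy on both sides. No sham-operated group is labelled, so the tear, the neurectomy and the surgery cannot be told apart. All controls are from day 0, so the time elapsed cannot be told apart from the injury either. The library titles carry 16 different numbers, but no label says that each number is a separate rat, so p-values measure the spread between these libraries, which may be partly technical. Sex and age are not given.

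Fatty acid synthesis starts when ATP citrate lyase cleaves citrate to cytosolic acetyl-CoA, which acetyl-CoA carboxylase turns into malonyl-CoA. Fatty acid synthase then builds palmitate from malonyl-CoA with NADPH, part of which comes from malic enzyme. In muscle malonyl-CoA is best known as a brake on fatty acid entry into mitochondria, because it inhibits carnitine palmitoyltransferase 1. SREBP-1, ChREBP and the liver X receptor switch these genes on in liver and fat.

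Totals ran from 17.2 to 39.9 M fragments (M stands for the prefix mega) per library, and the 60-day libraries were the shallowest. Levels are given in CPM, a gene's fragments per 1 M of its library after TMM scaling, which aligns the bulk of the genes between libraries. Every library held at least 86 fragments of each of the 10 genes, so depth did not limit their detection. The summed level of 12 muscle fibre markers was 253800 to 278800 CPM on day 0, 74690 to 81360 on day 10, 126500 to 179700 on day 30 and 158300 to 180900 on day 60. Scaling by library totals, with no TMM factors, moved the middle of all fold changes against 0 days up by log2 0.66, 0.49 and 0.41 on days 10, 30 and 60. Values under library totals are therefore given beside the results whose direction or call they change. Statements on whether the levels of groups overlap refer to TMM-scaled CPM unless library totals are named. In bulk tissue fewer cells of a type and less RNA per cell cannot be told apart.

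Fasn was the member that rose at all 3 times, while Me1, Mlycd, Mlxipl and Acaca were lower at all 3, Acaca on day 10 being higher under another scaling given below. On day 10, 8 of the 10 genes had an adjusted p under 0.05 in edgeR's quasi-likelihood test (3 higher, 5 lower), where 62.7% of all genes tested did (33.3% higher, 29.4% lower). On day 30, 7 did (2 higher, 5 lower), against 64.6% of all genes (33.7% higher, 30.9% lower). On day 60, 8 did (2 higher, 6 lower), against 59.0% (29.9% higher, 29.1% lower). In the joint test of the 4 groups all 10 were called, against 84.7% of all genes. With so many genes changed, nothing about the 10 is read from these counts. At each time 7 members had no library inside the range of the 0-day libraries or the reverse, against 59.0%, 60.2% and 50.0% of all genes. The 10 genes had a middle log2 fold change of -0.12, -0.37 and -0.66 on days 10, 30 and 60, where all genes tested had 0.06, 0.05 and 0.04. With library totals the members' medians were 0.53, 0.12 and -0.25, so the sign on days 10 and 30 depends on the scaling.

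**Figure D1:**
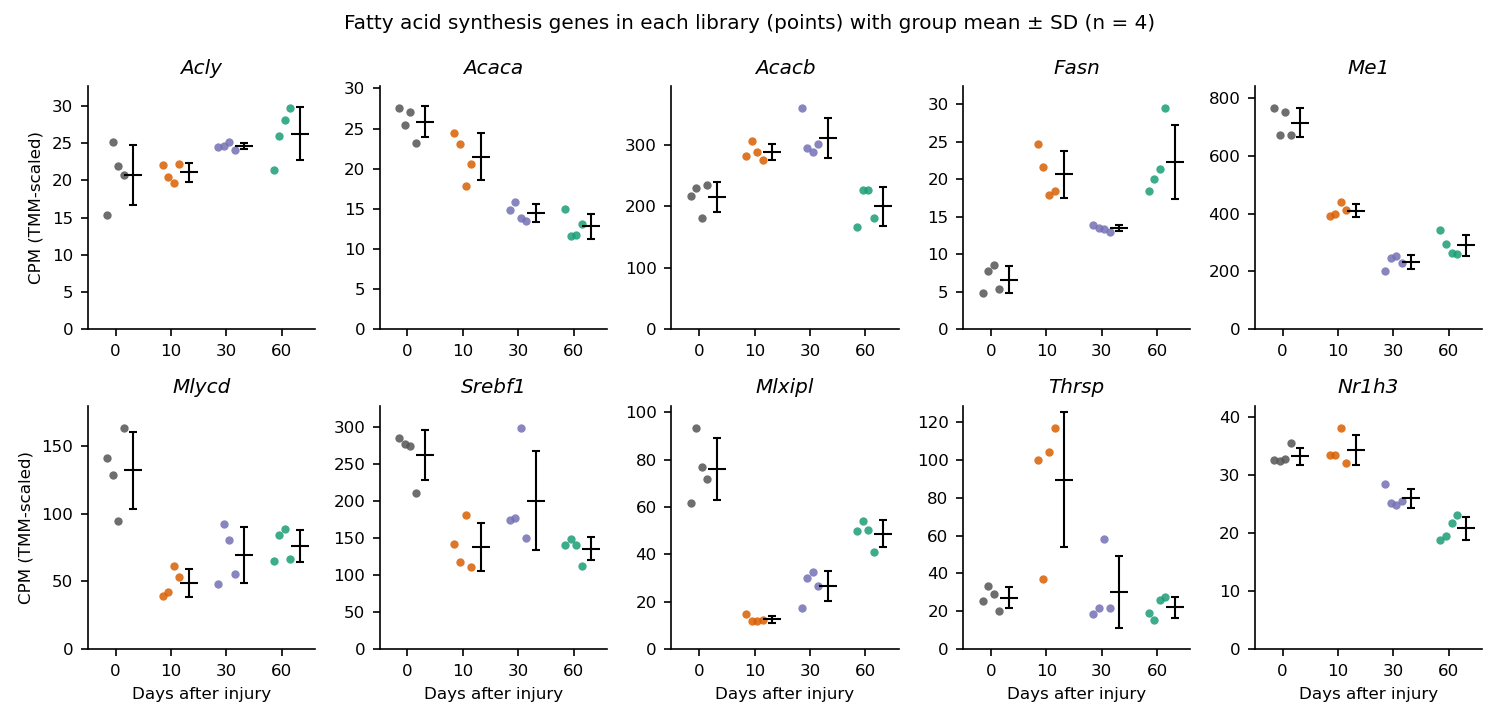
TMM-scaled CPM of each of the 10 genes (vertical axes from 0) in every library (points) at 0, 10, 30 and 60 days, with group mean ± SD (n = 4). Fasn is higher in every injured library than in every library of 0 days, Mlxipl is lowest on day 10, and Thrsp has 3 high libraries on day 10 and 1 on day 30.

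Among the enzymes, Fasn, the multi-domain synthase that makes palmitate, measured 4.83, 7.81, 8.52 and 5.32 CPM on day 0. On day 10 the 4 libraries gave 24.7, 21.7, 17.9 and 18.4 CPM, on day 30, 14.0, 13.5, 13.4 and 13.0 CPM, and on day 60, 18.4, 20.1, 21.4 and 29.5 CPM. Every injured library lay above every unoperated one, and the 30-day libraries lay below all of those on days 10 and 60. The fold change was 3.10 on day 10 (log2 1.63 ± 0.18 SE, edgeR adjusted p 6.56e-07), 2.02 on day 30 (1.01 ± 0.18, 0.000116) and 3.36 on day 60 (1.75 ± 0.18, 7.33e-07). Leaving out each library in turn gave log2 1.52 to 1.78, 0.90 to 1.16 and 1.60 to 1.90 at these times, and library totals gave 2.29, 1.51 and 2.17. Fasn thus fell between 10 and 30 days (log2 -0.62 ± 0.17, edgeR adjusted p 0.00624) and rose again between 30 and 60 days (0.73 ± 0.17, 0.00581). The difference between 60 and 10 days was 0.11 ± 0.17 (adjusted p 0.574).

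Acly, which supplies the acetyl-CoA, moved little. It measured 15.3, 25.1, 21.9 and 20.7 CPM on day 0, 22.0, 20.4, 19.6 and 22.2 on day 10, 24.5, 24.6, 25.1 and 24.1 on day 30 and 21.3, 26.0, 28.1 and 29.7 on day 60. The groups overlapped at every time against 0 days, whereas with library totals every injured library lay above every unoperated one. Its log2 fold change was 0.02 ± 0.12 on day 10 (edgeR adjusted p 0.903) and 0.24 ± 0.12 on day 30 (0.0925), and on day 60 it was called higher (0.34 ± 0.12, 0.0262). That last call was lost without replicate 1 on day 0 or without replicate 3 or 4 on day 60, with adjusted p up to 0.0692. With library totals Acly was called higher at all 3 times (0.68, 0.74 and 0.75).

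The carboxylases moved apart. Acaca encodes the cytosolic enzyme of lipogenic tissues, and Acacb the form at the mitochondrial surface that prevails in muscle. Acaca measured 27.5, 25.5, 27.1 and 23.2 CPM on day 0, 24.4, 23.1, 17.8 and 20.6 on day 10, 14.8, 15.8, 13.8 and 13.4 on day 30 and 14.9, 11.7, 11.7 and 13.1 on day 60. All libraries of 30 and 60 days lay below all of 0 and 10 days, while 0 and 10 days overlapped. With library totals every library of 10 days lay above every library of 0 days. Its fold changes were log2 -0.83 ± 0.11 on day 30 (edgeR adjusted p 4.82e-06) and -1.01 ± 0.11 on day 60 (1.21e-06), and both calls held with library totals (-0.34 and -0.60). On day 10 the value was -0.26 ± 0.11 (edgeR adjusted p 0.0376). It was lost without any of replicates 1, 2 and 3 on day 0 or 3 and 4 on day 10 (adjusted p up to 0.135), and with library totals it turned to 0.39, called higher (0.00300).

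Acacb measured 217, 229.7, 181 and 234 CPM on day 0, 282, 305, 288 and 275 on day 10, 359, 295, 288 and 300.3 on day 30 and 165, 226, 225 and 180.5 on day 60. Every library of 10 and 30 days lay above every library of 0 and 60 days, and 0 and 60 days overlapped. The rise was 1.34-fold on day 10 (log2 0.42 ± 0.11, edgeR adjusted p 0.00331) and 1.44-fold on day 30 (0.53 ± 0.11, 0.000530). Between 30 and 60 days Acacb fell by 0.64 ± 0.11 on the log2 scale (edgeR adjusted p 0.000824). On day 60 it stood at -0.11 ± 0.11 against 0 days (adjusted p 0.400), 0.03 with upper-quartile factors and 0.30 with library totals, where it was called higher (edgeR adjusted p 0.0417).

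Mlycd, malonyl-CoA decarboxylase, destroys what the carboxylases make. It measured 141, 129, 94.9 and 163 CPM on day 0, 38.9, 42.1, 61.3 and 53.5 on day 10, 48.1, 92.5, 80.8 and 55.8 on day 30 and 65.0, 84.0, 88.7 and 66.6 on day 60. All injured libraries lay below the lowest unoperated one. With library totals each injured group overlapped with day 0, whose lowest value was 71.2. The highest were 75.8, 97.6 and 88.3 on days 10, 30 and 60. The log2 fold change was -1.43 ± 0.22 (edgeR adjusted p 2.99e-05), -0.93 ± 0.21 (0.00132) and -0.80 ± 0.21 (0.00470) on days 10, 30 and 60. With library totals only the 10-day call held (-0.77), and the later values were -0.45 and -0.39 (adjusted p 0.0586 and 0.102). Mlycd rose from 10 to 60 days (0.63 ± 0.21, edgeR adjusted p 0.0174), a call lost without replicate 1 or 2 on day 10 or replicate 3 on day 60 (adjusted p up to 0.0538) and with library totals (0.38, 0.122).

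Me1, the cytosolic malic enzyme that yields NADPH, measured 766, 674, 752 and 671 CPM on day 0, 391, 400.2, 440.0 and 414 on day 10, 202, 247, 253 and 230.0 on day 30 and 342, 294, 263 and 262 on day 60. No group overlapped with another, and 30 days was the lowest. With library totals 0 and 10 days overlapped (513 to 593 and 469 to 544). The level was 1.74-fold lower on day 10 (log2 -0.80 ± 0.10, edgeR adjusted p 1.95e-06), 3.07-fold lower on day 30 (-1.62 ± 0.10, 1.52e-09) and 2.47-fold lower on day 60 (-1.30 ± 0.10, 2.73e-08). With library totals the 10-day value was -0.14 (adjusted p 0.130), while -1.13 and -0.90 on days 30 and 60 were still called. The rise from 30 to 60 days (0.32 ± 0.10, edgeR adjusted p 0.0254) was lost without replicate 1 or 4 on day 30 or replicate 1 or 2 on day 60 (adjusted p up to 0.0864), with library totals (0.23, 0.0518) and with those 8 libraries alone (0.0928).

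**Figure D2:**
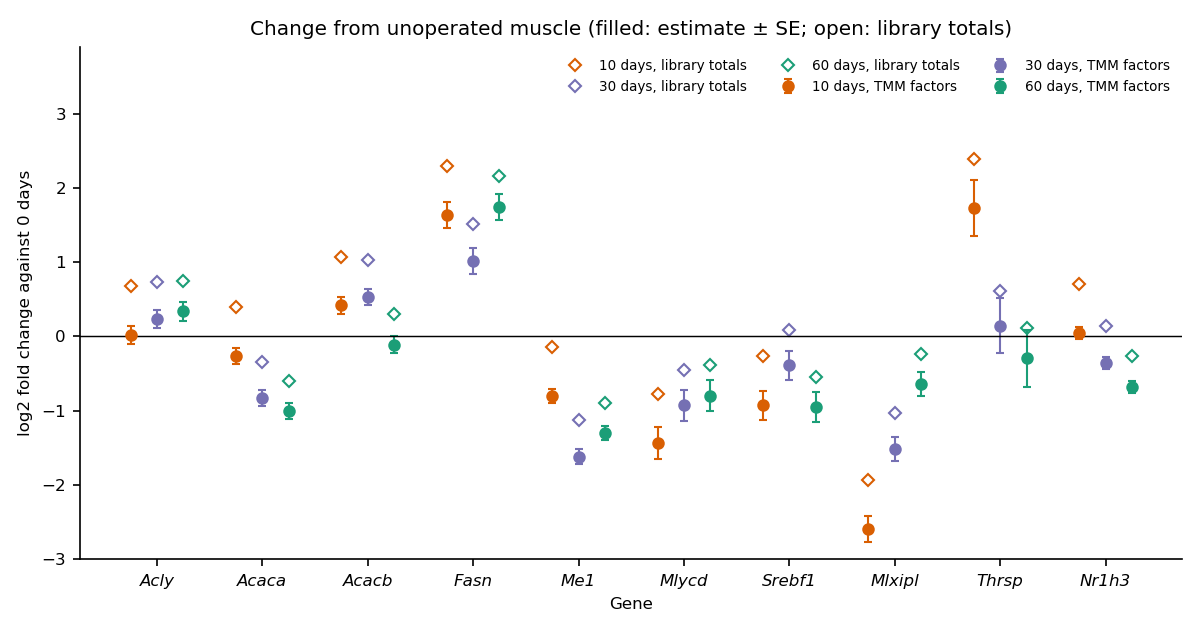
Log2 fold change of each gene against 0 days on days 10, 30 and 60 (filled circles, TMM factors, bars are SE), with the same estimate from library totals as open diamonds. The diamonds of Fasn stay above 0 at all 3 times, whereas Acaca on day 10 goes from -0.26 to 0.39.

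Among the regulators, Mlxipl encodes ChREBP, the glucose-sensing factor that switches on glycolytic and lipogenic genes. It measured 61.8, 93.4, 76.9 and 72.0 CPM on day 0, 14.6, 11.7, 11.7 and 12.3 on day 10, 17.5, 29.8, 32.4 and 26.7 on day 30 and 49.9, 54.2, 50.1 and 40.9 on day 60. The 4 groups did not overlap, with the lowest level on day 10 and a higher one at each later time. With library totals 0 and 60 days overlapped (47.9 to 71.3 and 43.8 to 55.0). It was 6.05-fold lower on day 10 (log2 -2.60 ± 0.17, edgeR adjusted p 3.95e-09), 2.86-fold lower on day 30 (-1.51 ± 0.16, 9.80e-07) and 1.56-fold lower on day 60 (-0.64 ± 0.16, 0.00284). It rose by log2 1.08 ± 0.17 from 10 to 30 days (edgeR adjusted p 7.44e-05) and by 0.87 ± 0.16 from 30 to 60 days (0.00163). With library totals the 60-day value against 0 days was -0.24 (adjusted p 0.139), and the earlier falls of -1.94 and -1.03 were still called.

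Srebf1 encodes SREBP-1, the membrane-bound factor that insulin and the liver X receptor raise. The table gives 1 value per gene, so its 1a and 1c transcripts are not separated. It measured 285, 277, 274 and 211 CPM on day 0, 142, 117, 181 and 110.5 on day 10, 175, 177, 299 and 151 on day 30 and 140.4, 149, 141 and 113 on day 60. The 10- and 60-day libraries lay below all unoperated ones. On day 30 replicate 3 lay above all unoperated libraries and the other replicates lay below them. With library totals the 10-day libraries overlapped with the unoperated ones, and every 30-day library lay above the lowest unoperated one. Srebf1 was 1.90-fold lower on day 10 (log2 -0.93 ± 0.20, edgeR adjusted p 0.000689) and 1.93-fold lower on day 60 (-0.95 ± 0.20, 0.000734). With library totals the 10-day value was -0.27 (adjusted p 0.193) and the 60-day value -0.55 was still called. On day 30 it was -0.39 ± 0.20 (adjusted p 0.0931), turning to 0.09 with library totals. Without replicate 3 of 30 days the 30-day value was -0.65 (edgeR adjusted p 0.00229). The rise from 10 to 30 days (0.54 ± 0.20, 0.0330) became 0.28 without it (adjusted p 0.158), and was also lost without replicate 1, 2 or 4 of 10 days, with library totals (0.36, 0.122) and with those 8 libraries alone (0.0990).

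Thrsp encodes Spot 14, a small nuclear protein abundant in lipogenic tissues. It measured 25.7, 33.2, 29.2 and 20.1 CPM on day 0, 99.8, 37.1, 104 and 117 on day 10, 18.5, 21.6, 58.4 and 21.6 on day 30 and 19.3, 15.5, 26.0 and 27.3 on day 60. On day 10, 3 libraries were far above the unoperated range and replicate 2 was just above it. The rise was 3.31-fold on day 10 (log2 1.73 ± 0.38, edgeR adjusted p 0.000914) and log2 1.98 without replicate 2. On day 30 the value was 0.15 ± 0.37 (adjusted p 0.749), which turned to -0.40 without replicate 3 (adjusted p 0.278). On day 60 it was -0.30 ± 0.38 (adjusted p 0.516) and 0.12 with library totals. Thrsp was 4.06-fold lower at 60 than on day 10 (log2 -2.02 ± 0.38, edgeR adjusted p 0.000302).

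Nr1h3 encodes liver X receptor alpha, the sterol sensor that acts on Srebf1. It measured 32.5, 32.3, 32.7 and 35.4 CPM on day 0, 33.4, 33.5, 38.1 and 32.1 on day 10, 28.4, 25.2, 24.8 and 25.4 on day 30 and 18.8, 19.5, 21.7 and 23.2 on day 60. The 0- and 10-day libraries overlapped, those of 30 days lay below them, and those of 60 days lay lower still. With library totals the 10-day libraries lay above all of 0 days, and those of 30 and 60 days each overlapped with 0 days. The log2 fold change was 0.04 ± 0.08 on day 10 (adjusted p 0.646), -0.36 ± 0.08 on day 30 (edgeR adjusted p 0.000919) and -0.68 ± 0.08 on day 60 (3.25e-06). With library totals Nr1h3 was called higher on day 10 (0.70), turned to 0.14 on day 30 (adjusted p 0.219) and stayed lower on day 60 (-0.27, edgeR adjusted p 0.0311).

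The bases upstream of the regulators that moved most are shown because Srebf1 and Mlxipl fell together on day 10 while Thrsp rose. Each run is the 250 bases before a RefSeq gene start on assembly GRCr8, 5′ to 3′ on the gene's own (minus) strand. The submitters' processing notes name build rn5 for the series, so these coordinates belong to RefSeq and not to the counts. Capitals mark CCAAT (the box bound by NF-Y), GGGCGG (the box bound by Sp1) or CATGTG (an E-box letter string), on either strand, so that CCAAT on the other strand reads ATTGG and GGGCGG reads CCGCCC. The windows lie at chr10:45519011-45519260 (Srebf1, the downstream of its 2 listed starts), chr12:27213661-27213910 (Mlxipl) and chr1:161138965-161139214 (Thrsp).
Srebf1: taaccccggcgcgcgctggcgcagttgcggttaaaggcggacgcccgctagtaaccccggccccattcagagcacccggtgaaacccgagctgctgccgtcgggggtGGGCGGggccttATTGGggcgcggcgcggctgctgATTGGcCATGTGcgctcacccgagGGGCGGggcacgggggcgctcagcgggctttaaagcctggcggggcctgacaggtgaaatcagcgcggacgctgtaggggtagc
Mlxipl: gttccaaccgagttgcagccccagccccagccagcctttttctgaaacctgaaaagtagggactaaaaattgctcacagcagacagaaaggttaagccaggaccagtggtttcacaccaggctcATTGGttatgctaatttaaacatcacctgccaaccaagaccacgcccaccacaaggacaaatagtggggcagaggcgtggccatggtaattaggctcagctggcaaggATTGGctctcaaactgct
Thrsp: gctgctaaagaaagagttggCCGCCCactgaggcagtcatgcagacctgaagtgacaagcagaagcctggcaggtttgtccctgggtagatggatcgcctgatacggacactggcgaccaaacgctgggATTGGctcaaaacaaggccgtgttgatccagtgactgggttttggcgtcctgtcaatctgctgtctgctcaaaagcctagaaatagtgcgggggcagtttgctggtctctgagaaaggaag
These windows hold CCAAT letters in each of the 3 genes, and GC boxes in Srebf1 and Thrsp alone. Letters of 7 kinds were searched on both strands in the 300-base windows (250 before to 50 after a start) of the 8 members that RefSeq's table holds, Srebf1 and Mlxipl having 2 windows each. Fasn and Acaca had no window there and were not searched. CCAAT was found in 6 of the 8 genes (Acly, Acacb, Mlycd, Srebf1, Mlxipl and Thrsp), against 37.5% of all 33469 windows. GGGCGG was found in 5 (Acly, Me1, Mlycd, Srebf1 and Thrsp), against 33.1%, and CATGTG in 2 (Acacb and Srebf1), against 14.0%. The SREBP letters TCACNCCAC were found in 0 of the 8 genes and 1.12% of all windows, and the E-box CACGTG in 0 and 6.42%. The ChREBP element of paired E-boxes and the DR4 element of the liver X receptor were in none of the 8 genes searched and in 1 and 2 of all windows. CCAAT and GGGCGG do not overlap each other in the 3 sequences shown, and a match of letters is not a binding site.

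Ratios of 2 genes inside a library do not depend on how libraries are scaled, so they were compared with two-sided exact permutation tests (4 against 4, smallest possible p 0.0286, adjusted over 12 tests). The balance of the carboxylases moved toward Acacb. The log2 ratio of Acaca to Acacb fragments averaged -3.05 ± 0.26 (SD, n = 4) on day 0, -3.75 ± 0.20 on day 10, -4.42 ± 0.16 on day 30 and -3.95 ± 0.39 on day 60. Its difference from 0 days was -0.70, -1.37 and -0.90, each with an exact p of 0.0286 (adjusted 0.0312) and no overlap between libraries. At 60 against 10 days it was -0.20 (exact p 0.400).

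The balance of maker and remover of malonyl-CoA in muscle moved toward the maker. The log2 ratio of Acacb to Mlycd was 0.73 ± 0.19 (SD, n = 4) on day 0, 2.58 ± 0.33 on day 10, 2.21 ± 0.56 on day 30 and 1.39 ± 0.05 on day 60. That is 3.61, 2.79 and 1.58 times the unoperated ratio, each with an exact permutation p of 0.0286 (adjusted 0.0312). From 10 to 60 days the ratio fell by 1.19 on the log2 scale (exact p 0.0286, adjusted 0.0312). These are transcript ratios, and malonyl-CoA was not measured.

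Between the lipogenic factors, the log2 ratio of Srebf1 to Mlxipl was 1.79 ± 0.31 (SD, n = 4) on day 0, 3.43 ± 0.35 on day 10, 2.90 ± 0.43 on day 30 and 1.47 ± 0.02 on day 60. The differences from 0 days were 1.64, 1.11 and -0.31, each with an exact permutation p of 0.0286 (adjusted 0.0312). Mlxipl therefore fell further than Srebf1 on days 10 and 30 and less far on day 60. The 60-day difference was -0.18 without replicate 1 of 0 days. The 4 libraries of 60 days gave 1.49, 1.46, 1.49 and 1.46.

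**Figure D3:**
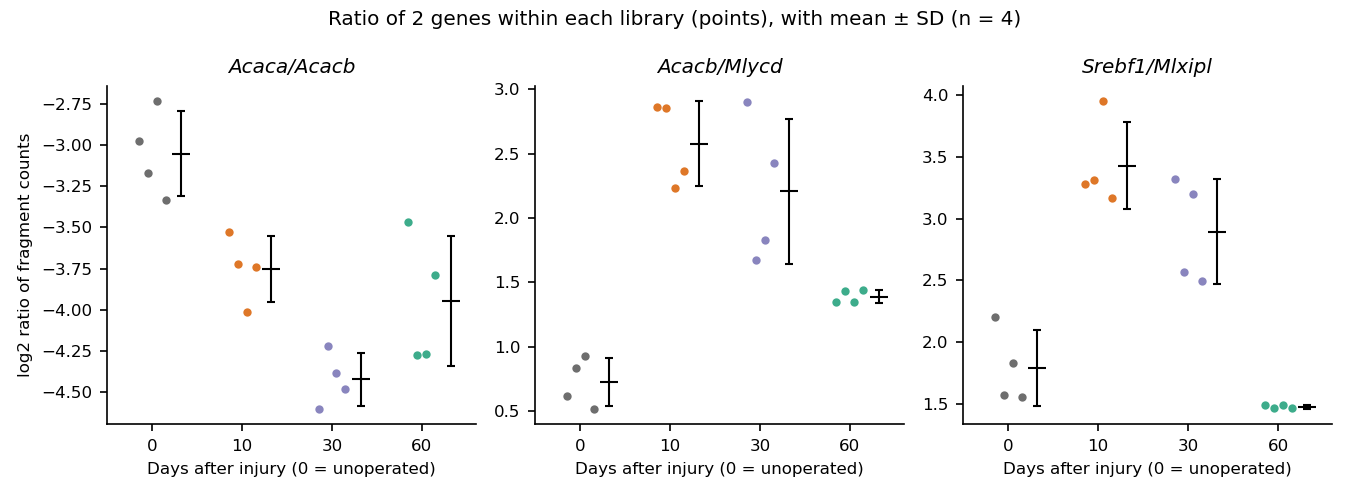
Log2 ratio of fragment counts of 2 genes within each library (points) at 0, 10, 30 and 60 days, with mean ± SD (n = 4). Acacb to Mlycd is higher in every injured library than on day 0, and Srebf1 to Mlxipl on day 60 lies between 1.46 and 1.49.

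Comparisons between injured groups ask how the genes moved after 10 days. From 10 to 30 days 7 of the 10 genes were called (2 higher, 5 lower), against 47.3% of all genes (23.0% higher, 24.3% lower). From 30 to 60 days 5 were called (3 higher, 2 lower), against 22.6% (10.3% higher, 12.4% lower), and from 10 to 60 days 8 (3 higher, 5 lower), against 61.1% (29.1% higher, 31.9% lower). Groups did not overlap for 6, 6 and 7 members, against 43.8%, 20.1% and 51.2% of all genes. Mlxipl was the member called higher in all 3 of these comparisons and Nr1h3 the member called lower in all 3.

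Other genes of the pathway were taken from 9 lists of 82 genes. Of all genes tested 33.3%, 33.7% and 29.9% were called higher and 29.4%, 30.9% and 29.1% lower on days 10, 30 and 60. These shares stand beside each count of listed genes or markers below, and nothing is read from the counts alone. The suppliers of NADPH, citrate and acetyl-CoA split: of 11 tested 5 were higher and 4 lower on day 10, 5 and 6 on day 30 and 5 and 3 on day 60. Under library totals the list had 7 higher and 4 lower, 5 and 1, and 7 and 1, and its median on day 30 turned from -0.36 to 0.13. Me2, the mitochondrial malic enzyme that yields NADH, rose from 3.87 CPM to 24.0, 14.0 and 9.31 CPM on days 10, 30 and 60 (log2 2.62, 1.85 and 1.27, edgeR adjusted p 1.01e-06 or less), while Me3, its NADP-linked mitochondrial relative, was lower (-1.53, -0.69 and -0.56). Me1 therefore fell while Me2 rose. Mdh1, cytosolic malate dehydrogenase, was lower on days 10 and 30 (-1.67 and -0.56) and stood at 0.07 on day 60 (adjusted p 0.775). With library totals Me3 was called on day 10 alone, and Mdh1 was lower on day 10 alone and called higher on day 60 (0.47).

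The products of Fasn are desaturated and built into glycerolipids. Of 10 such genes tested 2 were higher and 5 lower on day 10, and 4 higher and 5 lower at both later times. With library totals these counts were 5 and 2, 5 and 4, and 5 and 2, so which direction prevailed depends on the scaling. Scd1, the desaturase, was higher at all 3 times (log2 7.39, 7.81 and 3.14), whereas Lpin1, a phosphatidate phosphatase, was lower (-2.10, -2.81 and -2.77). Gpam, which adds the first acyl chain to glycerol phosphate, was also lower (-0.59, -1.94 and -1.55), as was Agpat2, which adds the second (-1.56, -1.61 and -0.79). With library totals the 10-day value of Gpam turned to 0.07 (adjusted p 0.721) and the 60-day call of Agpat2 was lost (-0.38). Elovl6, which lengthens palmitate, was in the table but did not pass the filter.

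The carboxylases are restrained by AMP-activated protein kinase. Of 11 genes of carboxylase control 2 were higher and 6 lower on day 10, 2 and 4 on day 30 and 1 and 3 on day 60. The balance was reversed under library totals, with 5 higher and 2 lower, 7 and 2, and 6 and 2. Prkaa2, the kinase's main catalytic subunit in muscle, was lower at all 3 times (log2 -1.50, -1.96 and -1.70), and Prkab2, a scaffold subunit, was 0.33 on day 10 (adjusted p 0.387, called higher at 0.99 with library totals) and lower later (-1.34 and -2.0). Prkag3, the gamma subunit of fast muscle, was higher on days 10 and 30 (0.85 and 1.19) and lower on day 60 (-0.66, lost with library totals at -0.25). Cpt1c, the brain-type relative of the enzyme that malonyl-CoA inhibits, was lower on days 10 and 30 (-1.32 and -0.53) and stood at -0.28 on day 60 (adjusted p 0.136). With library totals its 30-day call was lost (-0.05) and the 60-day value turned to 0.13.

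Of 6 tested genes that process SREBP 3 were higher and 0 lower on day 10, and 0 higher and 2 lower on days 30 and 60. With library totals these counts were 6 and 0, 3 and 1, and 2 and 1, so the direction on days 30 and 60 depends on the scaling. Scap, which escorts SREBP to the Golgi, was higher on day 10 (log2 0.73), as was the protease Mbtps2 (0.69, and -0.66 on day 60). Insig2, which holds Scap back, was lower on days 30 and 60 (-0.93 at each), and Insig1 on day 30 (-0.46). With library totals Insig1 on day 30 turned to 0.04, and the 60-day call of Mbtps2 was lost (-0.26). The biotin genes Btd and Slc5a6 were both higher on day 10 (0.46 and 0.39), and on days 30 and 60 Btd was higher (0.63 and 0.51) and Slc5a6 lower (-0.26 and -0.29). With library totals Slc5a6 was called higher on day 30 (0.24) and stood at 0.11 on day 60 (adjusted p 0.242).

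Of 13 tested partners of the transcription factors 9, 9 and 8 were lower and 2, 0 and 2 higher on days 10, 30 and 60. The retinoid X receptor, which pairs with the liver X receptor, was lower in its alpha form Rxra (log2 -0.95, -2.74 and -2.39) and its gamma form Rxrg (-2.14, -1.65 and -1.47). Ncoa1, a coactivator, was lower too (-0.61, -0.69 and -0.76), and Nfyc, an NF-Y subunit, on days 10 and 30 (-0.74 and -0.17). With library totals 8, 5 and 7 of the 13 were higher and 1, 3 and 3 lower, so the direction of that list depends on the scaling. Under them Rxrg was lower at all 3 times, Rxra on days 30 and 60 and Ncoa1 on day 60, and Nfyc was called higher on days 30 and 60 (0.32 and 0.38).

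Targets of the liver X receptor other than Srebf1 were higher in 5 of 7 and lower in 2 of 7 at each time, where all genes tested had 33.3%, 33.7% and 29.9% higher and 29.4%, 30.9% and 29.1% lower on days 10, 30 and 60. Scaled by library totals, the list had 6 higher and 1 lower, 5 and 1, and 5 and 0. Abcg1 and Abca1, which export cholesterol, were higher by log2 2.98, 2.64 and 1.74 and by 1.96, 2.20 and 1.18. Apoe, which carries lipid (1.30, 1.84 and 1.71), and Pltp, which transfers phospholipid (0.71, 1.21 and 1.22), were higher as well. With TMM factors Nr1h3 itself was level or lower, and Srebf1 lower on days 10 and 60. With library totals Nr1h3 was called higher on day 10 (log2 0.70), and Srebf1 was not called on that day (-0.27). The summed level of 11 macrophage markers was 50.03 to 81.2 CPM on day 0, with no marker absent. It was 148 to 197, 217 to 263 and 180.5 to 321 CPM on days 10, 30 and 60. The part of macrophages in these values was not tested.

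Of 6 tested targets of ChREBP 1 was higher and 2 lower on day 10, 2 and 1 on day 30 and 2 and 2 on day 60. With library totals these were 3 and 2, 3 and 1, and 3 and 1. Gpd1, which makes the glycerol backbone of fat, fell with Mlxipl from 1599 CPM to 75.2, 196 and 316 CPM (log2 -4.41, -3.03 and -2.34). Txnip was lower on day 10 (-1.04) and then -0.31 and 0.17 (adjusted p 0.0979 and 0.363). With library totals its 30-day value turned to 0.18 and its 60-day value was called higher (0.58). Khk, the first enzyme of fructose use, was higher at all 3 times (1.11, 1.40 and 0.73), from 1.17 CPM on day 0. Pklr, liver pyruvate kinase, was called higher on days 30 and 60 (1.54 and 1.43) at levels under 0.5 CPM. The separate pathway of fatty acid synthesis inside mitochondria had 1 higher and 4 lower of 9 genes on day 10, 2 and 2 on day 30 and 1 and 3 on day 60. Its Ndufab1, the acyl carrier protein, was -1.56 on day 10, -0.30 on day 30 (adjusted p 0.0512) and 0.05 on day 60 (adjusted p 0.770). With library totals its 30-day value turned to 0.19 and its 60-day value was called higher (0.46). With them 6, 7 and 4 of these 9 genes were higher and 2, 0 and 0 lower.

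**Figure D4:**
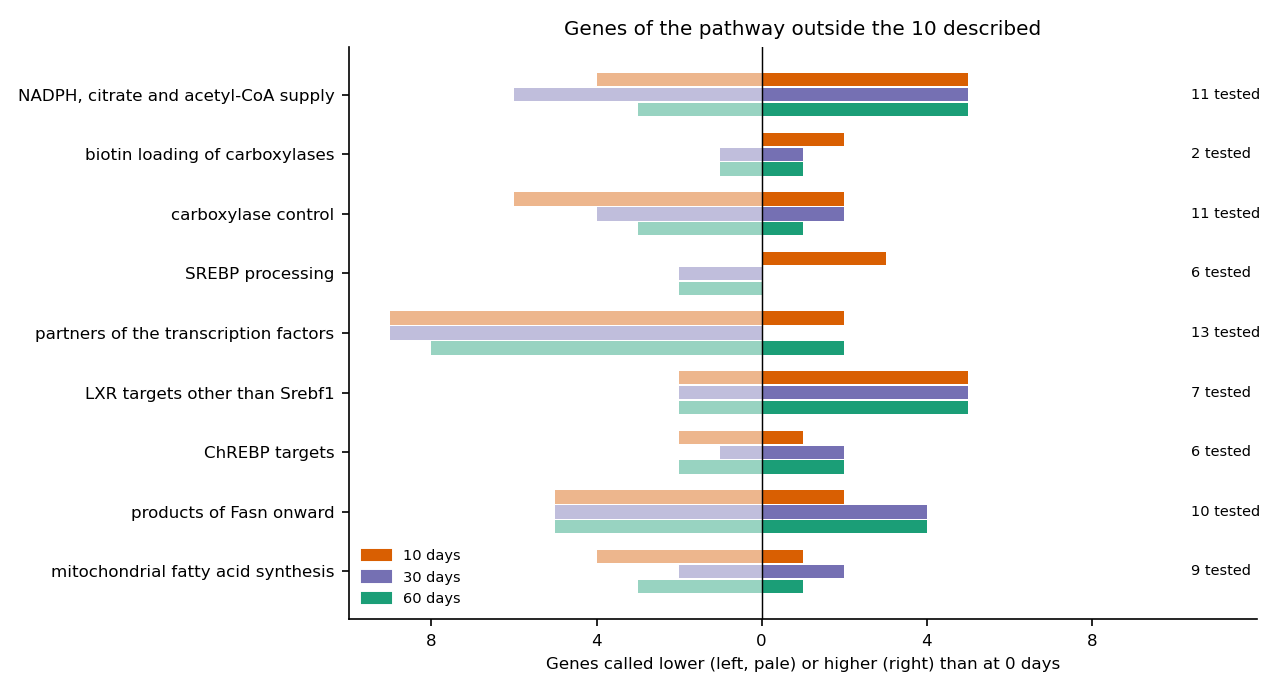
Number of genes called higher (right of 0) or lower (left of 0, pale) than on day 0 in each of 9 lists of related genes on days 10, 30 and 60, with the number tested on the right. Targets of the liver X receptor have 5 higher and 2 lower at every time with TMM factors, and 6 and 1, 5 and 1, and 5 and 0 with library totals. With TMM factors all genes tested have 33.3%, 33.7% and 29.9% higher and 29.4%, 30.9% and 29.1% lower.

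Fat cells also express these genes strongly, so adipocyte markers are given beside them. The summed level of 13 adipocyte markers was 269.8 to 315 CPM on day 0, 122 to 202 on day 10, 188 to 252 on day 30 and 302 to 554 on day 60, and none was at 0 in any group. On day 10, 1 of the 13 was higher and 4 were lower, on day 30, 1 and 4, and on day 60, 8 and 1. The shares of all genes given with the lists above apply to these marker counts too. With library totals the adipocyte counts were 1 higher and 3 lower, 3 and 2, and 11 and 1 on days 10, 30 and 60. With TMM factors Fabp4 and Lipe, 2 abundant markers, fell on day 10 (181 to 83.8 and 49.4 to 20.4 CPM), as did Aqp7 and Pparg (log2 -2.63 and -0.92). Adipoq, Plin1, Lep, Cidec, Cfd, Retn, Pck1 and Tshr were not called, and Cidea was higher (log2 2.18, edgeR adjusted p 2.54e-07). Fabp4 alone averaged 181 CPM of a mean sum of 299 CPM on day 0, and 83.8 of 163 CPM on day 10. Fasn and Thrsp were higher in these libraries, whose adipocyte sum lay below that of every unoperated library under TMM. The sums overlapped under library totals, at 143 to 243 on day 10 against 209 to 241 on day 0, and the median of the list went from -0.67 to -0.01. On day 60 Fasn and the adipocyte sum were both high: adiponectin (Adipoq) rose from 11.3 to 47.5 CPM (log2 2.05, edgeR adjusted p 0.000730) and leptin (Lep) from 1.36 to 5.23 CPM (1.92, 0.00370). With TMM factors Aqp7 was lower (log2 -1.635, edgeR adjusted p 0.00227), and Pparg, Fabp4, Lipe and Pck1 were not called. Library totals called 11 of the 13 markers higher on day 60. Hepatocyte markers summed to 3.33 CPM or less in every library. Fibroblast markers were also higher, in 4, 6 and 6 of the 6 tested on days 10, 30 and 60, with a sum of 467 to 979 CPM on day 0 and 867 to 2480, 1428 to 2262 and 1336 to 2808 CPM after injury, and Col1a2 listed at 0. Schwann cell markers were lower in 4 of 7 on day 10 and higher in 6 of 7 on day 60 (2 lower and 2 higher on day 10 under library totals; 96.6 to 146 CPM on day 0, 171 to 354 CPM on day 60). Endothelial markers were lower in 5 of 6 on day 10, 2 on day 30 and 1 on day 60, where 1 was higher. Under library totals 1 was lower on day 10, and 3 and 5 were higher on days 30 and 60. Their sum was 264 to 309 CPM on day 0 and 154 to 229 CPM on day 10, overlapping under library totals (203 to 236 and 182 to 283). The part of adipocytes, macrophages, fibroblasts, Schwann cells and endothelial cells in the values of Fasn, Acly and Thrsp was not tested. Replicate 4 on day 60, with the highest Fasn and Acly, had adipocyte and macrophage sums of 516 and 321 CPM, the latter the highest of all libraries.

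**Figure D5:**
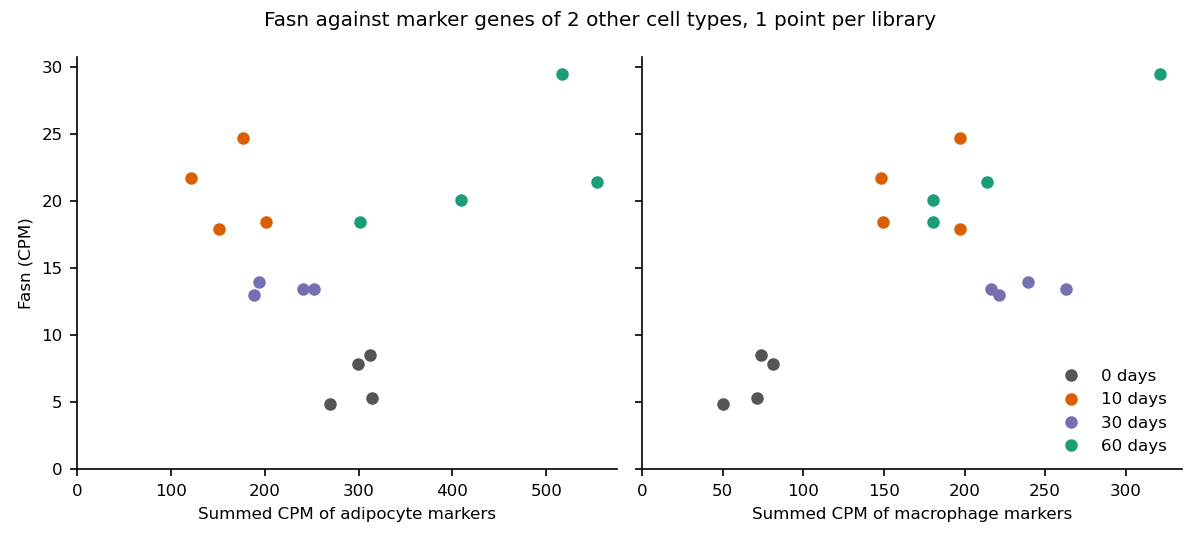
Fasn in each of the 16 libraries against the summed CPM of 13 adipocyte markers (left) and 11 macrophage markers (right), colored by day, with all axes from 0. The 4 libraries of 10 days have Fasn of 17.9 to 24.7 CPM at adipocyte sums of 122 to 202 CPM, below the unoperated 269.8 to 315 CPM with TMM factors, while library totals give overlapping sums of 143 to 243 and 209 to 241. Fabp4 alone averages 83.8 of a mean adipocyte sum of 163 CPM on day 10 and 181 of 299 CPM on day 0.

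As a description, the genes whose log2 CPM followed each member most closely over the 16 libraries were looked up among 8224 genes with a mean of at least 5 CPM. For Fasn these were Sdc2, Mapk3 and Tubb5 (Pearson r 0.95, 0.94 and 0.92), and for Acly Sri, Cfd and Rbp4 (0.92, 0.89 and 0.89). Mlxipl was followed by Flad1, Sdr39u1 and Gpi (0.99, 0.99 and 0.98), Me1 by Kif1c, Kcmf1 and Mvb12b (0.99, 0.99 and 0.98) and Acaca by Dcun1d2, Fbxl17 and Adam9 (0.97, 0.97 and 0.96). Mlycd had Hsd17b10, Bcat2 and Slc25a34 (0.95, 0.95 and 0.94), Nr1h3 had Gemin4, Dhrs4 and Rbl2 (0.96, 0.95 and 0.94) and Acacb had Zswim4, Dnajc12 and Mrpl45 (0.92, 0.91 and 0.90). Srebf1 had Dopey2, Cacna1a and Atpaf2 (0.89, 0.88 and 0.88) and Thrsp had Ada, Sgsm2 and Ttc13 (0.86, 0.84 and 0.84). The 16 points fall in 4 groups and share their libraries, so these values carry no test.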

How the data were processed

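Libraries (TruSeq mRNA kit) of RNA from supraspinatus muscle were made and sequenced, per the labels. The authors deposited 1 table of expected counts: unscaled fragments per gene and library, named as Cuffdiff output by the table's own title. The submitters' processing notes list bcl2fastq 1.8.4, TopHat2 2.0.9, Bowtie2 2.1.0.0, Cuffdiff 2.1.1 and build rn5; annotation, strand setting and filters are not given in the sources used here. All 16 columns were used. Values were rounded; 233 of 17147 genes, none of them among the 10 described, had fractional values.

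Genes passing filterByExpr (11658) entered 1 edgeR quasi-likelihood model of the 4 groups (TMM factors, robust, no covariate). Pairs of groups were compared by F test with Benjamini-Hochberg adjustment over all genes tested, and called below 0.05. The standard error of a fold change is that value divided by the square root of F. Ratios used counts plus 0.5. Replicates differed by more than counting error (chi-square per gene 13.9 or more). Other genes were named as the up to 4 with the largest change in a list, if called against 0 days. A gene that this rule names is not reported here. Members and lists were chosen with earlier results of these data known. The method was tested on simulated data with few genes changed, as many up as down. That setting does not test the choice of scaling. Alternatives were RLE and upper-quartile factors, library totals, DESeq2, other filters, the compared libraries alone, the column suffix as replicate block, the title letter, leaving out each library, and, added after seeing the data, thinned counts and marker sums by library totals. Software was R 4.3.3, edgeR 4.0.16, DESeq2 1.42.0, python 3.11.15 and matplotlib 3.10.9.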

Additional observations from a re-analysis of the deposited data

Results flagged for a closer look

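In 68 groups of 4 values, 5 had 1 library far from the other 3 by Dixon's gap test, where chance alone gives about 1 in 20. Thrsp reached 58.4 CPM in replicate 3 at 30 days, where the others had 18.5 to 21.6 CPM. The same library had the highest Srebf1 and Mlxipl of its group (299 and 32.4 CPM) and the highest muscle fibre marker sum (179700 CPM). Its adipocyte marker sum of 251.9 CPM was the highest of its group under TMM. With library totals that sum was 254.4, against 254.6 in replicate 2. Srebf1 was 211 CPM in replicate 4 at 0 days against 274 to 285 CPM in the others. Nr1h3 was 35.4 CPM in replicate 4 at 0 days against 32.3 to 32.7 CPM, and 28.4 CPM in replicate 1 at 30 days against 24.8 to 25.4 CPM. The library total of replicate 2 at 30 days was 39.9 M fragments against 22.9 to 24.8 M.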

How the results depend on the processing

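Of 60 fold changes (10 genes in 6 comparisons), 60 kept direction and call with no filter for low counts, 59 with a mean of at least 1 CPM, 59 with the title letter, 58 with RLE factors, 57 with thinned counts, 57 with the replicate block, 56 with DESeq2, 55 with upper-quartile factors, 55 with the compared libraries alone and 40 with library totals. The compared libraries alone gave 1530 genes between 60 and 30 days, against 2636, a fit with fewer samples. Columns of equal suffix did not deviate together in all pairs (correlations -0.237 to 0.216). Such correlations over all genes cannot settle whether the suffix marks a block, and the main model left the suffix out. With it as replicate block 8, 8, 8, 7, 6 and 8 members were called at 10, 30 and 60 against 0 days, 30 against 10, 60 against 30 and 60 against 10 days, and leaving out each library gave 7 to 8, 7 to 8, 7 to 8, 6 to 8, 4 to 6 and 6 to 8. The block gave 7244, 7474, 6762, 5397, 2549 and 7035 genes in all. With library totals these values changed sign: Acaca 0.39 at 10 days, Srebf1 0.0929 and Nr1h3 0.14 at 30 days, Acacb 0.30 and Thrsp 0.12 at 60 days against 0 days, Acacb -0.0469 between 30 and 10 days and Fasn -0.13 between 60 and 10 days. Library totals raised the share of higher calls among all genes from 53.1%, 52.2% and 50.7% to 87.4%, 84.1% and 82.7% at 10, 30 and 60 against 0 days and lowered it from 48.6%, 45.3% and 47.7% to 27.6%, 26.3% and 28.0% for 30 against 10, 60 against 30 and 60 against 10 days; upper-quartile factors gave 62.2% and 63.6% at 30 and 60 against 0 days. Other changes of sign were all in values not called: Acly at 10 days (-0.0163 with RLE factors, -0.0173 with DESeq2, -0.0046 with the compared libraries alone, -0.095 to 0.13 on leaving out 1 library), Acacb at 60 days (0.0322 with upper-quartile factors) and Srebf1 between 60 and 10 days (0.0081 with RLE factors, 0.062 with upper-quartile factors, 0.0085 with a mean of at least 1 CPM, 0.0016 with the replicate block, 0.0082 with DESeq2). Leaving out 1 library also gave -0.011 to 0.0785 for Nr1h3 at 10 days, -0.40 to 0.32 for Thrsp at 30 days, -0.0086 to 0.30 for Mlycd and -0.62 to 0.10 for Thrsp between 60 and 30 days, and -0.0327 to 0.21 for Fasn and -0.12 to 0.14 for Srebf1 between 60 and 10 days. Scaling aside, the cause of these changes was not tested. The 12 differences of ratios kept their sign with 0 or 2 counts added, with medians and without any 1 library. Depth limits the detection of none of the 10 genes, but thinned counts moved some calls near the threshold. They lost 2 calls, Acaca at 10 against 0 days (edgeR adjusted p 0.0527) and Acly at 60 against 10 days (0.0524). They gained 1, Srebf1 at 60 against 30 days (edgeR adjusted p 0.0454). Precision also depends on the number of libraries, 4 per group.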
